A study of Mus musculus with 6 samples.

Results

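The genes described here are those of the peroxisome proliferator-activated receptors (PPARs) and of lipid uptake in cultured mouse macrophages. They were chosen by name, as 10 genes of the 38124 in the deposited table, and all 10 were found. They are the receptors Pparg and Ppard, their heterodimer partner Rxra, the coactivator Ppargc1b, the fatty acid carriers Fabp4 and Fabp5, the uptake receptor Cd36, the lipase Lpl, its inhibitor Angptl4, and Pdk4, a kinase that turns pyruvate dehydrogenase off. The macrophages had been grown from the bone marrow of C57BL mice with the wild type genotype. Their poly(A) RNA was sequenced in 2 groups of 3 libraries, which the design text calls biological replicates. The treated group had been kept with thymocytes made apoptotic with dexamethasone, a synthetic glucocorticoid, at a stated ratio of 1:40, and the thymocytes were removed after 24 hr. The untreated group had received none. Macrophages given dexamethasone alone were not analysed here, so dexamethasone carried over with the thymocytes and the thymocytes themselves cannot be told apart.

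PPARs are nuclear receptors that bind fatty acids and their derivatives and act on DNA as heterodimers with retinoid X receptors. In macrophages PPARγ, encoded by Pparg, is known for switching on lipid uptake and fatty acid carriage, and PPARδ, encoded by Ppard, for sensing lipids and for oxidation genes. Fabp4, Cd36, Angptl4, Pdk4 and Plin2 are textbook PPAR targets, and Lpl is one in several tissues. Engulfed apoptotic cells bring membrane lipid into the macrophage, which makes the receptors and their targets of interest together.

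Promoters of the receptor genes Pparg and Ppard, of their partner Rxra and of the uptake gene Cd36 are shown first. The receptor that fell can thus be seen beside 3 genes that rose. Not all of the 8 windows found are printed, and the rest are described below the sequences. The windows are the 250 bases before a RefSeq start on GRCm38.p6, written 5′ to 3′ on the gene's own strand, and 5 of the 10 genes had at least 1 window. Capitals mark the receptor half-site AGGTCA on either strand, which reads TGACCT when the match is on the other strand.
Pparg, chr6:115360894-115361143, plus strand: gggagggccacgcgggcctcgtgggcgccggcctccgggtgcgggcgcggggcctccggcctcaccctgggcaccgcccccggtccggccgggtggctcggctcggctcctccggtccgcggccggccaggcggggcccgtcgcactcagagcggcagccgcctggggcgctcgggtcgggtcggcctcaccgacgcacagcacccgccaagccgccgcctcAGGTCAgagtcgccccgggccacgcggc
Ppard, chr17:28232504-28232753, plus strand: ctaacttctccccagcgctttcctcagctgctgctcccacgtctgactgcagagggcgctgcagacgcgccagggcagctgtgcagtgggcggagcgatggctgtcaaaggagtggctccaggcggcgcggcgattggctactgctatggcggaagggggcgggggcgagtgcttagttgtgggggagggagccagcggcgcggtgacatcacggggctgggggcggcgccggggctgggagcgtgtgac
Rxra, second of its 2 starts, chr2:27709042-27709291, plus strand: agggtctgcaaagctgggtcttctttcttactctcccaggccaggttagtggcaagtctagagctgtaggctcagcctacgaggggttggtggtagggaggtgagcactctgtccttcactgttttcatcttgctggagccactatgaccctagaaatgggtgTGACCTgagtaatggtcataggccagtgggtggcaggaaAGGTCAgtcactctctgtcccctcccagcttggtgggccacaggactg
Cd36, chr5:17835897-17836146, minus strand: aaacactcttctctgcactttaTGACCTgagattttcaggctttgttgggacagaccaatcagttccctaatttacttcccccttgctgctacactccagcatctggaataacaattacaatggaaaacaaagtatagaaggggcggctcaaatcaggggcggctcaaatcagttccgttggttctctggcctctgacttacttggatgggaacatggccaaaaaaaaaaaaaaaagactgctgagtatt
The half-site lay 28 bases before the Pparg start, 87 and 48 bases before the second Rxra start and 228 bases before the Cd36 start, counted from its first base. The second of 3 Pparg windows held 1 too, 9 bases before that start. Neither the third Pparg window, nor the first Rxra window, nor the windows of Ppard and Pdk4 held one. Of all 32851 windows in the table, 14.02% held the half-site. The full PPAR element, a direct repeat of AGGTCA spaced by 1 base, was in none of the 8 windows of these genes and in 0.0335% of all windows. The glucocorticoid response element, AGAACA and TGTTCT spaced by 3 bases, was likewise in none of the 8 windows and in 0.00913% of all. Both strands were searched, and each full PPAR element also holds the half-site.

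Libraries of 1 group resembled each other, with Pearson r across tested genes of 0.994 to 0.998, and r between groups was 0.935 to 0.940. Depth, recovered from the deposited values, was 22782450 to 25933208 mapped reads in treated and 19315132 to 23907256 in untreated libraries. The 10 macrophage markers were all expressed, with a summed level of 20188 to 22537 RPKM in treated and 15698 to 16435 RPKM in untreated libraries. Most of that sum was Lyz2, at 19418 ± 1128 RPKM in treated and 13388 ± 408 RPKM in untreated libraries (SD, n = 3). Of the 10 markers 2 rose, 7 fell, Csf1r and Cd68 among them, and 1 failed the test, with a median log2 change of -0.37. The largest falls were those of Fcgr1 (7.09-fold), Cd14 (3.96-fold), Itgam (3.61-fold) and Aif1 (3.30-fold). Mertk rose 4.33-fold, and Lyz2 rose too. Scaled by median ratios, 3 were higher and 5 lower. The fall of Cd68 was lost under that scaling (log2 change 0.015 against -0.16), and that of Csf1r was kept (-0.40 against -0.57). RPKM is the reads on a gene scaled to its length and to the depth of the library. Of 15 thymocyte markers 5 were at 0 in all libraries. Their sum was 2.21 to 2.64 RPKM in treated and 4.38 to 4.75 RPKM in untreated libraries, nearly all of it Cd4, and without Cd4, left out after its value was seen, 0.198 to 0.322 RPKM and 0.246 to 0.389 RPKM. Reads of 6 erythroid genes numbered 18, 23 and 20 in treated and 0, 1 and 0 in untreated libraries.

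With apoptotic thymocytes, Pparg and Lpl fell, while Ppard, Rxra, Fabp4, Fabp5, Cd36 and Angptl4 rose. These 8 genes reached 1 RPKM in at least 3 libraries and were tested (limma on log2(RPKM + 1), Benjamini-Hochberg adjusted p under 0.05 over 10173 genes). Ppargc1b and Pdk4 stayed below 1 RPKM and were not. The treatment moved most of the transcriptome, with 18.8% of tested genes higher, 46.0% lower and 64.8% changed in either direction. That split depends on scaling, since median-of-ratios scaling gave 3234 genes higher and 2832 genes lower, but the calls of these 8 genes did not change with it. The groups did not overlap in any of the 10 genes, nor in 69.6% of tested genes or 48.5% of all genes above 0 RPKM. That 8 of 8 tested genes changed, 6 higher and 2 lower, is read against that background and says little by itself. The sizes and directions are given below. Over all tested genes the median log2 change was -0.13, and log2 changes relative to it are given where they help. In such bulk RNA a smaller share of expressing cells and less RNA per cell cannot be told apart.

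**Figure D1:**
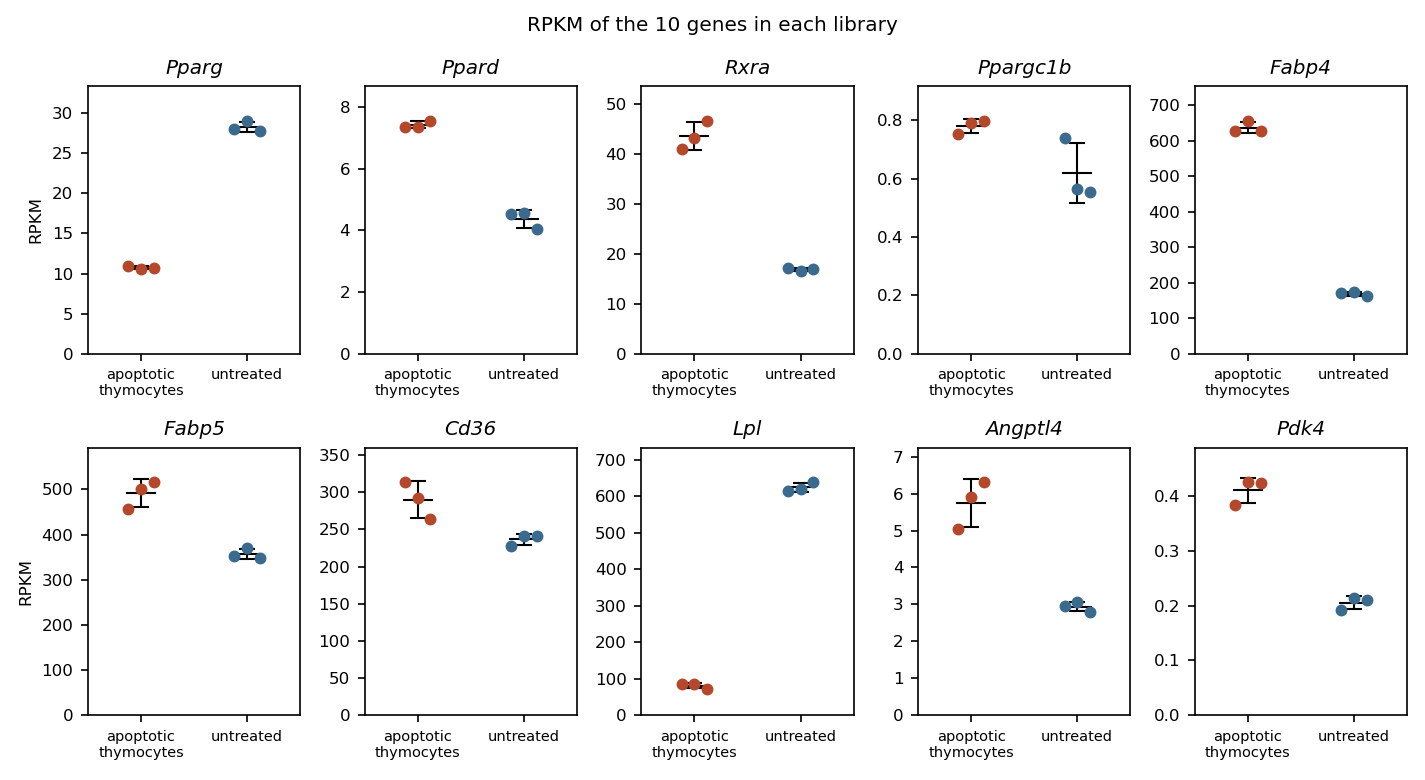
RPKM (vertical axes, from 0) of the 10 genes in the 3 libraries with apoptotic thymocytes and the 3 untreated libraries, each point 1 library, with the mean and SD as bars. The groups do not overlap in any panel. Pparg and Lpl are lower with apoptotic thymocytes and the other 8 genes are higher, with Ppargc1b the closest to overlap.

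The receptor genes moved in opposite directions. Pparg (ENSMUSG00000000440, mm10 chromosome 6, 115361221 to 115490401, plus strand) stood at 10.9, 10.6 and 10.7 RPKM in treated and at 28.1, 29.1 and 27.8 RPKM in untreated libraries. The treated values were close together, and each was below every untreated value, by 2.56-fold to 2.74-fold. The log2 change was -1.32 (SE 0.0418, adjusted p = 1.14e-08, limma), or -1.19 relative to the median gene, and 321 of the 10173 tested genes fell further. Behind these levels lay 560, 479 and 501 reads in treated and 1075, 1379 and 1273 reads in untreated libraries.

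Ppard (ENSMUSG00000002250, chromosome 17, 28232754 to 28301469, plus strand) stood at 7.35, 7.35 and 7.55 RPKM in treated and at 4.54, 4.55 and 4.03 RPKM in untreated libraries. Every treated library was above every untreated one. The rise was 1.69-fold (log2 change 0.65, SE 0.0552, adjusted p = 7.86e-06, limma), from 775 to 883 reads per treated and 406 to 504 per untreated library. Ppara, the third PPAR gene, was at 0 RPKM in all libraries.

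Rxra (ENSMUSG00000015846, chromosome 2, 27676440 to 27762957, plus strand), which encodes the retinoid X receptor that pairs with both PPARs and with other nuclear receptors, stood at 40.9, 43.2 and 46.6 RPKM in treated and at 17.1, 16.5 and 16.8 RPKM in untreated libraries. It rose 2.59-fold (log2 change 1.32, SE 0.0528, adjusted p = 4.55e-08, limma), and only 150 tested genes rose further. Relative to the median gene its log2 change was 1.45. Rxrb, its relative, was at 11.2, 12.6 and 12.2 RPKM in treated and 12.4, 13.2 and 12.6 RPKM in untreated libraries and did not pass, and Rxrg was at 0 RPKM in all libraries.

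Ppargc1b (ENSMUSG00000033871, chromosome 18, 61298136 to 61400431, minus strand), which encodes PGC-1β, a coactivator of nuclear receptors known for mitochondrial and oxidation genes, was at 0.754, 0.792 and 0.798 RPKM in treated and 0.740, 0.566 and 0.554 RPKM in untreated libraries. The highest untreated value lay just below the lowest treated one. These levels rest on 72 to 78 reads per treated and 51 to 57 per untreated library. The exact permutation test over samples, two-sided, gave p = 0.1, the smallest that 3 against 3 can give. When all 18737 genes above 0 RPKM were tested instead, Ppargc1b did not pass (limma, adjusted p = 0.0863). Its relative Ppargc1a was barely detected, at 0.0208 ± 0.00714 RPKM in treated and 0.0151 ± 0.0165 RPKM in untreated libraries (SD, n = 3).

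Other receptors and cofactors of the pathway moved by less than Pparg and Rxra. Of 12 tested genes in a list of 16, Ncoa1 rose, 8 fell and 3 did not pass; the median log2 change was -0.17 against -0.13 over all tested genes. The share called, 75.0%, is to be read against 64.8% of all tested genes. Among the falls were those of the coactivator gene Ncoa3 (log2 change -0.44, 19.1 ± 0.376 RPKM treated and 26.4 ± 1.13 RPKM untreated) and of Nrip1 (-0.39, 1.29 ± 0.189 RPKM and 2.0 ± 0.103 RPKM), whose product represses nuclear receptors. Hdac3, the histone deacetylase of the corepressor complex, did not pass (9.06 ± 0.358 RPKM and 9.40 ± 0.574 RPKM). The 8 falls were 4 without treated library 2, untreated library 1 or untreated library 3, and 5 without treated library 3. After the libraries were scaled by their median ratio, 3 of the 12 were lower and 1 higher, and Ncoa3 and Nrip1 were still among the lower ones.

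The carriers rose, unequally. Fabp4 (ENSMUSG00000062515, chromosome 3, 10204347 to 10208576, minus strand), the carrier called aP2 in fat cells, stood at 627, 656 and 629 RPKM in treated and at 170.0, 173 and 162 RPKM in untreated libraries. Every treated library was at least 3.63-fold above every untreated one. The rise was 3.79-fold (log2 change 1.92, SE 0.0463, adjusted p = 1.95e-09, limma), and 68 tested genes rose further. On the RPKM scale its median place among tested genes was 55th from the top in treated and 245th in untreated libraries.

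Fabp5 (ENSMUSG00000027533, chromosome 3, 10012548 to 10016607, plus strand), the epidermal carrier, a gene with many pseudogenes whose reads the counting may have split, which is known to deliver ligands to PPARδ, stood at 457, 502 and 516 RPKM in treated and at 352, 369 and 348 RPKM in untreated libraries. The groups did not overlap. The rise was 1.38-fold (log2 change 0.46, SE 0.0564, adjusted p = 9.27e-05, limma). Of the other 11 genes of the carrier family and its retinoid-binding relatives, 9 were too low to be tested, 6 of them at 0 in all libraries. Fabp3, the heart-type carrier, fell 2.47-fold, to 6.19 ± 0.489 RPKM in treated against 15.3 ± 0.676 RPKM in untreated libraries (log2 change -1.18, adjusted p = 2.47e-07, limma). Fabp7, the brain-type carrier, did not pass, at 10.4 ± 1.80 RPKM and 10.8 ± 0.944 RPKM.

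Which of the carriers was higher in treated libraries depended on the gene length behind RPKM. For Fabp4 the shortest length that fits the deposited values was 637 bp, and its true length and reads could be whole multiples of those given. The deposited value of Fabp5 was computed over 3567 bp, the union of all annotated Fabp5 exons in GENCODE M21, which includes a retained-intron transcript of 3238 bp. Fabp4 has a retained-intron transcript there as well, of 4231 bp, above the 637 bp found. The longest protein-coding transcripts are 896 bp for Fabp4 and 987 bp for Fabp5. Reads on Fabp5 numbered 40774 to 43308 per treated and 24243 to 31475 per untreated library, and reads on Fabp4 9433 to 10353 and 2092 to 2631. On the deposited scale Fabp4 was 1.30 ± 0.0760 times Fabp5 in treated and 0.472 ± 0.00992 times Fabp5 in untreated libraries (SD, n = 3). Per kilobase of coding transcript, a scale chosen after seeing the data, Fabp5 was at 1776 ± 110.4 RPKM and Fabp4 at 453 ± 11.6 RPKM in treated libraries, against 1287 ± 40.9 RPKM and 120 ± 4.16 RPKM in untreated libraries. With these recovered reads Fabp5 was then above Fabp4 in all 6 libraries, while the change of each gene was the same on both scales.

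**Figure D2:**
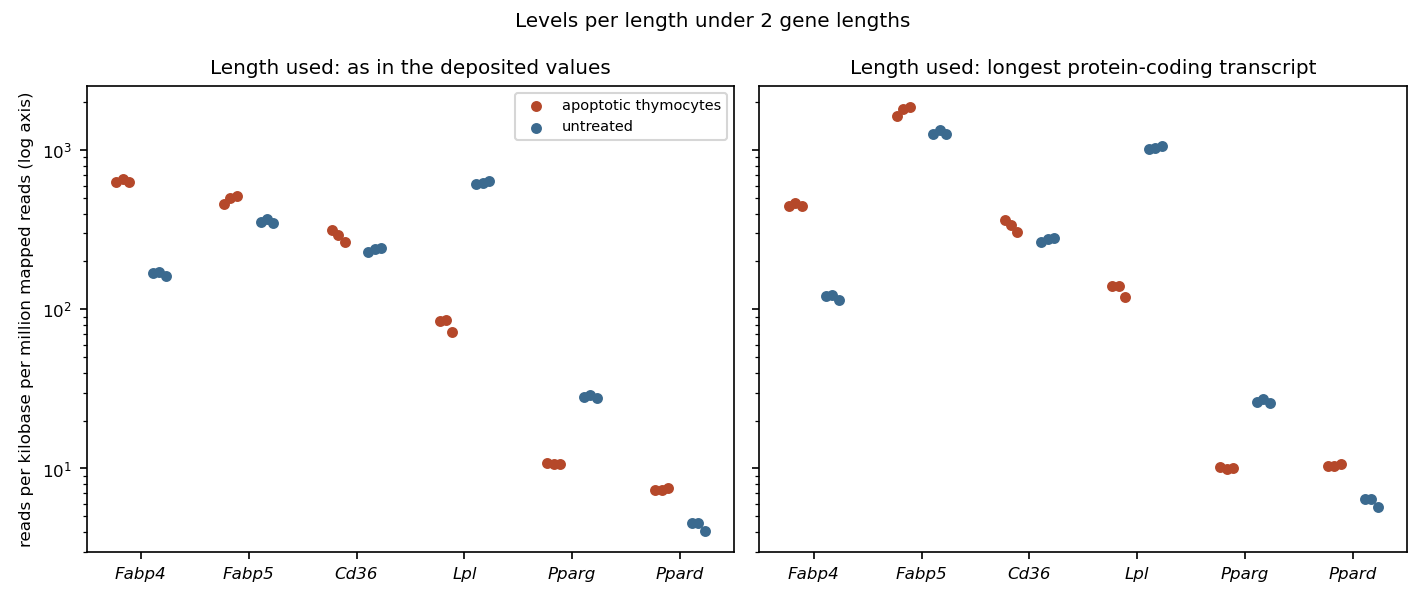
RPKM (log axis) of 6 genes, with the length behind the deposited RPKM on the left and the longest protein-coding transcript on the right, each point 1 library. Fabp4 lies above Fabp5 with apoptotic thymocytes on the left and below it on the right, and Pparg and Ppard trade places in the same way, while the gap between the groups of each gene is the same in both panels. The right panel divides the reads behind the deposited values by the coding length, so orders between genes depend on the length chosen.

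Genes of lipid entry at the cell surface were split. Lpl (ENSMUSG00000015568, chromosome 8, 68880491 to 68907448, plus strand), the secreted lipase that frees fatty acids from lipoproteins, stood at 84.9, 85.1 and 72.4 RPKM in treated and at 616, 620 and 638 RPKM in untreated libraries. It fell 7.73-fold (log2 change -2.94, SE 0.0650, adjusted p = 1.22e-09, limma), and 21 of the 10173 tested genes fell further. Every untreated library was at least 7.23-fold above every treated one. In deposited RPKM, Lpl was the highest of the 10 genes in untreated libraries and the fourth in treated libraries, and its median place among all tested genes was 534th in treated and 58th in untreated libraries.

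Angptl4 (ENSMUSG00000002289, chromosome 17, 33773750 to 33781575, minus strand), a secreted inhibitor of lipoprotein lipase, stood at 5.05, 5.90 and 6.31 RPKM in treated and at 2.96, 3.06 and 2.80 RPKM in untreated libraries. It rose 1.96-fold (log2 change 0.77, SE 0.0742, adjusted p = 1.76e-05, limma), on 215 to 244 reads per treated and 94 to 120 per untreated library. The lipase and its inhibitor thus changed in opposite directions. The treated libraries did not overlap with the untreated ones in either gene.

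Cd36 (ENSMUSG00000002944, chromosome 5, 17781690 to 17888959, minus strand), the scavenger receptor that takes up fatty acids and oxidised lipoprotein, stood at 313, 293 and 264 RPKM in treated and at 228, 241 and 242 RPKM in untreated libraries. The lowest treated library was 1.09-fold above the highest untreated one. The rise, 1.23-fold, was the least of the 6 (log2 change 0.29, SE 0.0642, adjusted p = 0.00359, limma), and it was 0.42 relative to the median gene.

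Around Lpl, the lipase list held 14 genes, of which 9 were tested. Of these 5 rose, 2 fell and 2 failed the test. That is 77.8% called, against 64.8% of all tested genes, and the median log2 change was 0.33 against -0.13 over all tested genes. Pnpla2, the lipase that starts the breakdown of stored triglyceride inside the cell, rose 3.55-fold, to 99.9 ± 9.01 RPKM in treated against 28.2 ± 0.525 RPKM in untreated libraries. Apoc2, which encodes the activator of lipoprotein lipase, rose 3.51-fold, to 63.5 ± 3.78 RPKM against 18.1 ± 0.587 RPKM. Apoc1, whose product restrains that lipase, rose to 2.84 ± 0.407 RPKM against 0.254 ± 0.0810 RPKM (log2 change 1.61). Lipe, hormone-sensitive lipase, did not pass (5.09 ± 0.520 RPKM and 4.81 ± 0.109 RPKM). Scaled by median ratios, 7 of the 9 were higher and 0 lower, so the 2 falls, in Mgll and Abhd5, were lost under it, and Lipe was called higher. The fall of Mgll was also lost without treated library 2, untreated library 1 or untreated library 2.

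Beside Cd36, other genes of lipid uptake and fatty acid activation were lower or did not pass. Of 11 tested genes in a list of 15, 0 rose (limma; also 0 at an unadjusted p under 0.05), 9 fell and 2 failed the test. That is 81.8% called, against 64.8% of all tested genes, and the median log2 change was -0.46 against -0.13 over all tested genes. The acyl-CoA synthetase gene Acsl3 fell 3.70-fold, to 1.85 ± 0.461 RPKM in treated against 6.85 ± 0.185 RPKM in untreated libraries, and Scarb1, a receptor for high-density lipoprotein, 2.28-fold, to 8.92 ± 0.695 RPKM against 20.4 ± 0.645 RPKM. Acsl1 did not pass (5.89 ± 0.152 RPKM and 5.66 ± 0.230 RPKM). With median-of-ratios scaling 7 were lower and 2 higher, and the 2 higher ones were Slc27a4 and Acsl1. With upper-quartile scaling 6 were lower and 2 higher, and the fall of Acsl4 was lost.

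Pdk4 (ENSMUSG00000019577, chromosome 6, 5483351 to 5496309, minus strand), a target of PPARδ in muscle, was near the floor of detection. It stood at 0.384, 0.425 and 0.423 RPKM in treated and at 0.192, 0.214 and 0.210 RPKM in untreated libraries, on 35, 34 and 35 reads against 13, 18 and 17 reads. The treated mean was 2.0-fold the untreated one, and the groups did not overlap. The exact permutation test, two-sided, gave p = 0.1, the smallest possible. When all 18737 genes above 0 RPKM were tested, Pdk4 passed as higher (limma, adjusted p = 0.000402). The change tested there was small, a log2 change of 0.23 (SE 0.0227) of RPKM + 1. In that test 11.4% of genes were higher and 39.0% changed.

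The more abundant genes of the same kinase family were Pdk1, Pdk2 and Pdk3. Of 8 tested genes that control or form pyruvate dehydrogenase, 1 rose, 3 fell and 4 failed the test. So 4 of 8 were called, a smaller share than the 64.8% of all tested genes, and the median log2 change was -0.02. With median-of-ratios scaling 3 were higher and 2 lower. Pdk1 fell 2.85-fold, to 2.20 ± 0.0485 RPKM in treated against 6.27 ± 0.195 RPKM in untreated libraries, whereas Pdk3 rose 1.24-fold, to 4.66 ± 0.240 RPKM against 3.75 ± 0.286 RPKM. Pdha1, a subunit of the enzyme itself, fell (log2 change -0.30), and Pdhb did not pass (38.1 ± 1.37 RPKM and 37.7 ± 2.82 RPKM).

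Among other PPAR targets the changes were small. Of 33 listed genes 16 were tested, and of these 9 rose, 4 fell and 3 failed the test. The share called was 81.2%, against 64.8% of all tested genes, and the median log2 change was 0.17 against -0.13 over all tested genes. The largest change was in Plin2, the coat protein of lipid droplets, which stood at 468, 492 and 516 RPKM in treated and at 334, 345 and 338 RPKM in untreated libraries (log2 change 0.54, adjusted p = 1.4e-05, limma). Cpt1a, the entry enzyme of mitochondrial oxidation, was among the 9. The falls were led by Nr1h3, which encodes the sterol receptor LXRα (12.1 ± 1.09 RPKM treated and 17.1 ± 0.244 RPKM untreated), and Acadm, a dehydrogenase of fatty acid oxidation (19.3 ± 1.60 RPKM and 26.0 ± 0.335 RPKM). Abca1, the cholesterol exporter, was at 13.5 ± 1.01 RPKM and 13.5 ± 0.473 RPKM and failed the test. Scaled by median ratios, 12 of the 16 were higher, Abca1 among them, and 3 lower. Of the 17 untested genes Cyp4a10, Fgf21, Plin5 and Adipoq, known from liver, muscle or fat, were at 0 RPKM in all libraries.

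**Figure D3:**
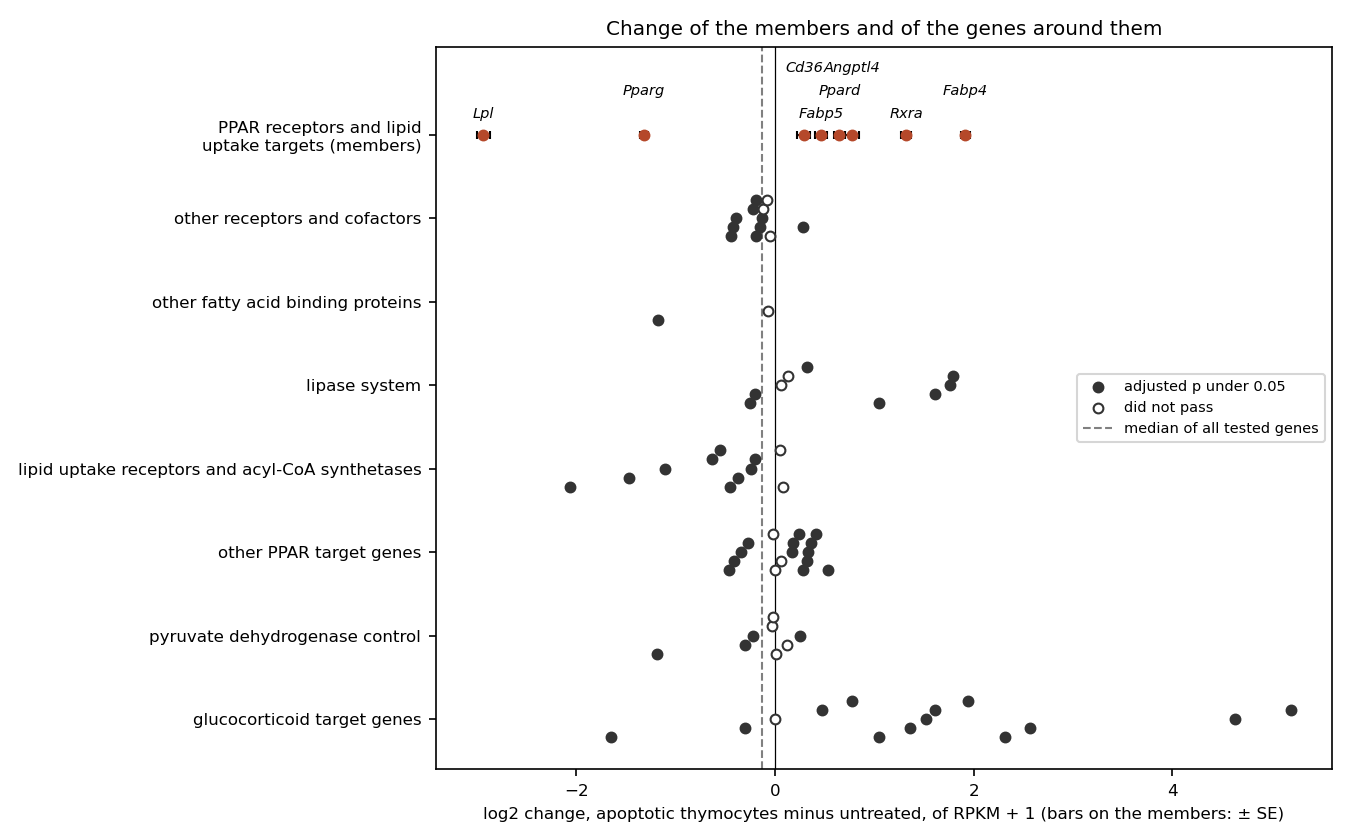
Log2 change of RPKM + 1, apoptotic thymocytes minus untreated, of each tested gene (1 point a gene) in the 10 genes described (named, with SE bars) and in 7 lists of genes around them; filled points passed at adjusted p under 0.05 and the dashed line is the median of all tested genes, -0.13. Lpl at -2.94 and Fabp4 at 1.92 are the outermost of the named genes, and the lipid uptake list lies almost wholly left of 0.

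Receptors and targets were set beside each other by ratios within a library, which no scaling of libraries can move. Pparg was 1.45 ± 0.0301 times Ppard in treated and 6.49 ± 0.367 times Ppard in untreated libraries (RPKM, SD, n = 3), a log2 difference of -2.16. Fabp4 was 59.4 ± 2.25 times Pparg in treated and 5.94 ± 0.126 times Pparg in untreated libraries, a log2 difference of 3.32. Both the rise of Fabp4 and the fall of Pparg enter that difference. Angptl4 was 0.0720 ± 0.0140 times Lpl in treated and 0.00471 ± 0.000287 times Lpl in untreated libraries, a log2 difference of 3.92 or 15.1-fold. For Fabp4 to Fabp5 the log2 difference was 1.46. In each of the 4 ratios the groups did not overlap. The exact permutation test over samples, two-sided, gave p = 0.1 before and after adjustment over the 4. That is the smallest that 3 against 3 can give. Except for Fabp4 to Fabp5, this outcome was fixed in advance, since both genes moved in opposite directions without overlap.

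**Figure D4:**
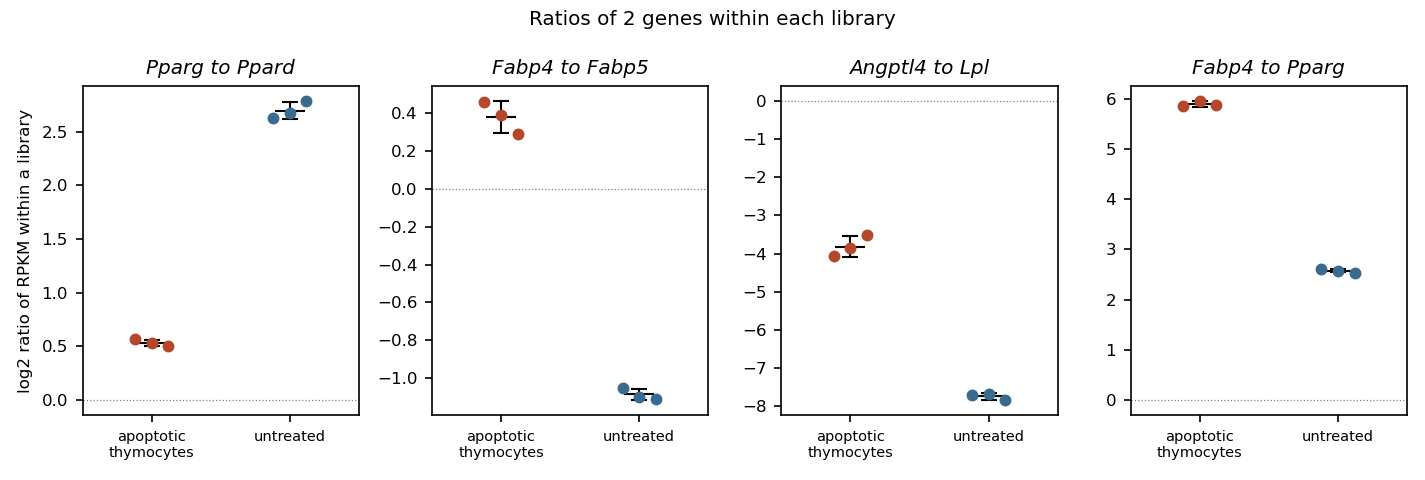
Log2 ratio of RPKM of 2 genes within each library (points), with the mean and SD of 3 libraries as bars and a dotted line where both genes are equal. Pparg to Ppard is lower with apoptotic thymocytes and the other 3 ratios are higher, with no overlap between the groups.

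The order of levels among the 10 genes differed between the groups. In deposited RPKM it ran Fabp4, Fabp5, Cd36, Lpl, Rxra, Pparg, Ppard, Angptl4, Ppargc1b and Pdk4 in treated libraries, and Lpl, Fabp5, Cd36, Fabp4, Pparg, Rxra, Ppard, Angptl4, Ppargc1b and Pdk4 in untreated libraries. No 2 neighbours overlapped over the 3 libraries in either order. Per kilobase of coding transcript, Fabp5 was first in both groups, ahead of Fabp4 in treated and of Lpl in untreated libraries, and in treated libraries Ppard, at 10.5 ± 0.161 RPKM, was just above Pparg, at 10.02 ± 0.134 RPKM. On this scale too neighbours did not overlap. It divides reads recovered over 1984 bp for Pparg and 4631 bp for Ppard by 2125 bp and 3277 bp. Reads and lengths thus cover different bases, and which of these receptors was higher in treated libraries is not settled. In untreated libraries Pparg was above Ppard on both scales.

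Markers of fat and endothelial cells, which also express several of these genes, were low except for Kdr. Of 7 adipocyte markers, Adipoq, Lep and Cfd were at 0 in all libraries, and the 7 together had 2, 2 and 3 reads in treated and 0, 0 and 1 in untreated libraries, or 0.0514 to 0.0975 RPKM and 0 to 0.0275 RPKM. The 6 endothelial markers summed to 2.58 to 2.85 RPKM in treated and 7.04 to 7.92 RPKM in untreated libraries. Most of it was Kdr, which encodes a receptor of vascular growth factor and fell to 2.28 ± 0.0647 RPKM in treated against 6.97 ± 0.366 RPKM in untreated libraries, while Cdh5, Tie1, Tek and Cldn5 were all below 1 RPKM. The summed endothelial level was lower in treated libraries, as was Lpl, and its part in the fall of Lpl was not tested.

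Most of the listed glucocorticoid target genes were higher in the same libraries. Of 14 tested, 11 rose, 2 fell and 1 failed the test, or 92.9% called against 64.8% of all tested genes. The median log2 change was 1.44 against -0.13 over all tested genes, with a summed level of 693 to 742 RPKM in treated and 292 to 294 RPKM in untreated libraries. Ddit4 rose to 61.3 ± 5.07 RPKM in treated against 0.698 ± 0.128 RPKM in untreated libraries, Fkbp5 to 73.2 ± 2.90 RPKM against 2.0 ± 0.134 RPKM, and Klf9 to 15.1 ± 1.75 RPKM against 1.73 ± 0.411 RPKM. Sesn1 fell 3.29-fold (log2 change -1.65) and Errfi1 fell by 0.30 on the log2 scale. Sgk1 did not pass (22.9 ± 0.407 RPKM and 22.9 ± 0.688 RPKM). Angptl4, Pdk4 and Rxra were higher in the same libraries, and the part of glucocorticoid in their levels cannot be told apart from that of the apoptotic cells in this design.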

How the data were processed

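RNA of 6 macrophage cultures was sequenced as stranded poly(A) libraries, per the labels' protocols. The deposited values are RPKM for 38124 genes, per the file headers, with annotation on GRCm38 (mm10), per the submitters' processing notes. The aligner, counter, gene models, use of strand and handling of reads shared between genes are not given in the sources used here, so genes with close copies, such as Fabp5, are uncertain.

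Depth was the whole number that the most genes of GENCODE M21 length shared when 1 to 20 reads were assumed for each, and reads of the listed genes then came out whole within 0.001 for all 143 genes above 0. Lengths were those of GENCODE M21 or were found by search up to 40000 bp, where the shortest length that fits was taken. Reads and lengths could thus be a whole fraction of the true ones. Reads limit counting error only.

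limma 3.58.1 (R 4.3.3) was fitted to log2(RPKM + 1) of genes that reached 1 RPKM in 3 libraries, by group alone and with its trend option. Changes on this scale understate those of genes near 1 RPKM. Folds are ratios of mean RPKM. The limma p-values weigh the group difference against the spread between these samples, moderated across genes. On reads simulated for this comparison (10149 genes tested), 80% of genes changed 1.25-fold and 100% of those changed 1.5-fold were called, and 0.121% of unchanged genes. The simulation changed 200 genes and gave every gene the same fixed spread between libraries. In the data 64.8% of tested genes were called and the spread differed by gene. The simulated rates are therefore not error rates of the fit to the data. Python 3.11.15, pandas 2.3.3 and numpy 2.4.6 handled the tables.

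The members and lists were chosen with earlier results of these data known. There were 7 lists around the members, with 111 genes, and 5 marker lists. Named genes are the 10 members, and of each list up to 3 changed genes with the largest change, 1 that did not pass with the smallest, and markers with the highest treated level. Some genes under this rule are not reported here. Others, namely those with reads of 0, Rxrb, Ppargc1a, Cpt1a, Sesn1, Errfi1, Med1, Pdp1, Pdpr, Mgll, Abhd5, Slc27a4, Pdk2, Tie1, Tek and Cldn5, were named after their values were seen. So were the macrophage markers Fcgr1, Cd14, Itgam, Aif1 and Mertk. Alternatives were other pseudocounts (0.1, 0.01), filters (none, 5 RPKM), scalings, no trend, a replicate term and leaving out each library. No outlier flags were possible with 3 samples a group.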

Additional observations from a re-analysis of the deposited data

How the results depend on the processing

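The 8 tested members kept their direction and call under all 14 alternatives, with 6 higher and 2 lower in each, and Pdk4 joined as a 7th higher gene with no filter. The highest adjusted p over these alternatives was 0.021, for Cd36, whose log2 change ranged from 0.23 to 0.46. Scaling moved counts. With median-of-ratios scaling 3234 genes were higher and 2832 lower, and with upper-quartile scaling 3280 and 2814, against 1915 and 4679 as reported. Among the 111 listed genes around the members, 18 and 17 were lower under these scalings, against 29. Over all alternatives 24 of the 72 tested genes of these lists had a changed call in at least 1. Among genes of these lists, markers aside, called under either scaling or as reported, the sign of Pprc1 turned (log2 change 0.000361 and 0.00335), as did that of Ncoa2 (0.013 and 0.016), Abca1 (0.16 and 0.16) and Acaa1a (0.14 and 0.15). Rxrb, Med1, Hdac3, Fabp7, Pdp1 and Pdpr, which passed neither as reported nor under either scaling, also turned from below to above 0. Med1 did pass without treated library 1. Both scalings divide untreated by more than treated libraries, which moves every change upward. Per kilobase of coding transcript, the log2 ratio in treated libraries was -0.064 for Pparg to Ppard, against 0.53, and -1.97 for Fabp4 to Fabp5, against 0.38, because the lengths differ. Leaving out 1 library gave 1549 to 1949 higher and 3657 to 4708 lower genes, and ratio differences of -2.20 to -2.12 (Pparg to Ppard), 1.42 to 1.504 (Fabp4 to Fabp5), 3.77 to 4.05 (Angptl4 to Lpl) and 3.29 to 3.34 (Fabp4 to Pparg).

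The samples share only a replicate number. Same-numbered deviations correlated at 0.197, -0.0310 and -0.162. With the replicate block 1904 genes were higher and 4627 lower, and 6 and 2 members. Depth limits Pdk4 and Ppargc1b most, at 13 to 78 reads.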
